A study of Mus musculus with 24 samples.

Results

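The genes described here build the postsynaptic density, the protein meshwork under the membrane of excitatory synapses. They were 39 scaffolds, linkers and anchored enzymes, listed by symbol, and the glutamate receptor subunits were not among them. Of the 39, 33 were measured by at least 1 probe set that reached a mean of 4 on the log2 scale in striatum or cerebellum and whose annotation gives that symbol alone. Shank1 and Cacng8 had probe sets that stayed under this level, and no probe set was paired with Shank2, Ppp1r9b, Lrrc7 or Begain alone, so these 6 genes are not analysed here. Each gene stands by its probe set with the highest mean over the 24 arrays. The 33 genes had 69 probe sets past the filter in all, of 20738 past it over the whole array. The 33 were read against 10766 genes chosen by the same rule.

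The mice carried the HdhQ111 allele, a knock-in that places an expanded CAG repeat in the mouse huntingtin gene Hdh. It was homozygous in the Q111 animals (HdhQ111/HdhQ111), and the wild-type animals were Hdh+/Hdh+ with 2 alleles of 7 glutamines (Q7/Q7). The knock-in sits at the gene's own locus, so every cell of both tissues carries it. Each of the 4 groups, wild-type striatum, Q111 striatum, wild-type cerebellum and Q111 cerebellum, held 6 arrays of total RNA from whole tissue of mice aged 3 to 10 weeks. The age of single animals, their sex and whether a striatum and a cerebellum came from 1 mouse are not given in the sources used here. The replicates are called biological, but separate animals are not named, so the p-values may reflect technical spread only. The design sets the genotypes side by side in the striatum, which degenerates in Huntington's disease, and in the cerebellum, which is less affected.

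At an excitatory synapse, membrane-associated guanylate kinases (MAGUKs, the Dlg family) bind receptors and adhesion molecules through PDZ domains. SAPAP proteins (the Dlgap family) link the MAGUKs to Shank, and Shank binds Homer, which ties the complex to group I metabotropic glutamate receptors and inositol trisphosphate receptors. CaMKII is the most abundant kinase of the structure, and TARPs (the Cacng family) carry AMPA receptors to it. Spiny projection neurons, the main cells of the striatum, receive these synapses on dendritic spines from cortex and thalamus. In the cerebellum, granule cells and Purkinje cells carry most of them.

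Most neuron markers of each tissue were where the labels put them. In wild type all 10 measured markers of striatal projection neurons were called higher in striatum, against 32.1% of all genes. All 9 measured markers of cerebellar granule neurons were called higher in cerebellum, against 41.6%. Of 5 measured Purkinje cell markers, 4 were called higher in cerebellum and 1, Gad1 (log2 difference 0.38), higher in striatum. In striatum the mean of 8 cerebral cortex markers ran from 7.22 to 8.19 over the Q111 arrays and from 7.0 to 7.67 over the wild-type arrays, and 2 of the 8, Neurod6 (log2 difference 1.12) and Fezf2 (0.71), were called higher in Q111. The striatal projection neuron markers had 0 of 10 called by genotype in striatum, with a median difference of -0.14. Of 8 measured microglia markers, C1qa, C1qb and C1qc were called higher in Q111 striatum and Aif1 lower, with a median difference of 0.0. Of 4 measured endothelial and mural markers, Cldn5 and Rgs5 were called lower. Over all genes 2.78% were called by genotype in striatum, and 0.873% were called higher.

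The largest differences among these genes lay between the tissues, where members of 1 family often went opposite ways. The 250 bases upstream of 1 annotated start per gene in RefSeq (GRCm38.p6) are shown for 6 genes that lie on opposite sides of the tissue comparison. They are Homer1 and Homer3, Lin7b and Lin7a, and Nrgn and Camk2d, which encode a calmodulin-binding protein and a kinase that calmodulin activates. Capitals mark matches on either strand to 6 motifs. The GC box was searched as GGGCGG and the CCAAT box by the letters of its name. The TATA box was searched as TATAAA and the E-box as CAGCTG. The cyclic AMP response element was searched as TGACGTCA and its half-site, which the full element contains, as TGACG. The half-site was added after the sequences had been seen. For every gene with several annotated starts, the one farthest upstream was taken. Homer1 and Lin7a have 2 annotated starts each.
Homer1, chr13:93303507-93303756 on the plus strand: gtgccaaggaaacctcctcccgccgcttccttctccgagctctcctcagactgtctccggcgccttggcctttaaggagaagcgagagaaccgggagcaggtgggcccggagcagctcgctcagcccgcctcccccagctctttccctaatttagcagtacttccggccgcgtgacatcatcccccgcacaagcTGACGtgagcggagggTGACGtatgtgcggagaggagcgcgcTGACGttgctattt
Homer3, chr8:70282749-70282998 on the plus strand: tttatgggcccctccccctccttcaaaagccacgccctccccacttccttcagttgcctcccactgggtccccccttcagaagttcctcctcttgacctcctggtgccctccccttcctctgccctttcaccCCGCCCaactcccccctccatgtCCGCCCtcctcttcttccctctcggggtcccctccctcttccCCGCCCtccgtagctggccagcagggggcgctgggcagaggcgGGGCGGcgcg
Lin7b, chr7:45370565-45370814 on the minus strand: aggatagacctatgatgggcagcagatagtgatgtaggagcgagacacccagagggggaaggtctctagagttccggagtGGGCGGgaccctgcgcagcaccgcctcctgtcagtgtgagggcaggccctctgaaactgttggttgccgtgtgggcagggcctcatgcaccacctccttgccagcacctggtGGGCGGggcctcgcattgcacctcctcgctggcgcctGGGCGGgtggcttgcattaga
Lin7a, chr10:107271581-107271830 on the plus strand: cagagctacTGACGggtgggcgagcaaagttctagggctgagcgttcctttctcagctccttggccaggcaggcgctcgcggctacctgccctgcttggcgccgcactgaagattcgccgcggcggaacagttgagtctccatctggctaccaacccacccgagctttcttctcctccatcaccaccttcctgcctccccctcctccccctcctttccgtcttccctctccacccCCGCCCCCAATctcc
Nrgn, chr9:37552746-37552995 on the minus strand: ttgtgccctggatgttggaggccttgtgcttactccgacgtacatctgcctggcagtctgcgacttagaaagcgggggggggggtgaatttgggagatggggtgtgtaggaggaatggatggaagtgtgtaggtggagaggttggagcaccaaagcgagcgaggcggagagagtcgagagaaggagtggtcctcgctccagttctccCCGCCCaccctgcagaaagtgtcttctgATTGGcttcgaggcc
Camk2d, chr3:126596701-126596950 on the plus strand: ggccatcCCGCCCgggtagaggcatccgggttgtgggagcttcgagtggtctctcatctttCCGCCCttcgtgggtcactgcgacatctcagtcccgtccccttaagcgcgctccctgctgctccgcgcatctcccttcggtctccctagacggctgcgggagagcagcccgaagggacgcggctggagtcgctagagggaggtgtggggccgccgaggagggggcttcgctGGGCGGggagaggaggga

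Homer1 carried 3 half-sites and no GC box in this window, and Homer3 carried 4 GC boxes and no half-site. Lin7b had 3 GC boxes, Lin7a had 1 GC box directly followed by a CCAAT box, with 1 half-site, and Camk2d had 3 GC boxes. Nrgn held 1 GC box and 1 CCAAT box. Over the 25 of the 33 measured genes with an entry, 16 held a GC box, against 33.0% of 27025 promoters, 6 a CCAAT box (34.5%), 4 an E-box (12.7%), 3 a half-site (17.8%), 1 a TATA box (13%) and 0 the full response element (1.6%). The median GC content of the window was 62.4% over these 25 and 52.0% over all promoters. These are matches of letters in a window and were not tested for any binding.

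Between the tissues of wild-type mice, 31 of the 33 genes passed an adjusted p of 0.05 (limma's moderated test over 20738 probe sets, Benjamini-Hochberg adjusted), against 73.8% of all genes. They divided into 23 higher in striatum, against 32.1% of all genes, and 8 higher in cerebellum, against 41.6%. The median difference, striatum minus cerebellum, was 0.78 over the 33 and -0.08 over all genes, and the median size without regard to sign was 2.2 against 0.47. The filter also kept genes that reached 4 in 1 tissue only, which favours genes that differ between tissues. Ddn, Ptk2b, Nrgn, Synpo, Cacng3 and Dlgap2 passed it through striatum alone, and Homer3 and Cacng7 through cerebellum alone. Their tissue calls, and their share in these counts and medians, are partly set by the filter. With values under 4, the filter level, set to 4, 19 of the 33 differed at least 2-fold, against 23.3% of all genes. On the same bound 9 differed at least 8-fold, against 4.33%. In these whole-tissue samples, fewer cells of a type and less RNA per cell cannot be told apart. In Q111 mice 32 of the 33 were called between the tissues, against 73.6% of all genes, and the 31 called in wild type were all called here too with the same sign. The wild-type and Q111 comparisons use different arrays. The groups did not overlap for 27 of the 33 in wild type, against 55.2% of all genes.

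**Figure D1:**
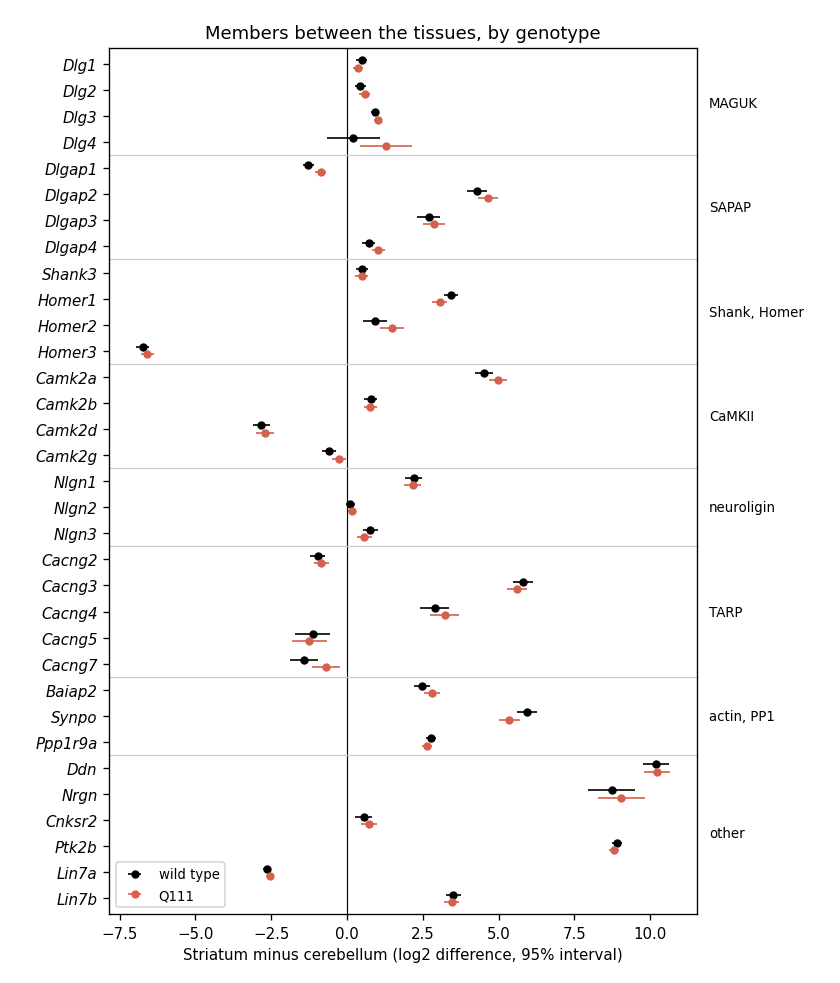
Log2 difference of striatum minus cerebellum (x axis) for each of the 33 measured genes (rows, grouped by role), with 95% intervals from the fit; black points are wild type and orange points Q111. Homer3, Camk2d and Lin7a lie left of 0 in both genotypes while Homer1, Camk2a and Lin7b lie right of it.

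Dendrin (Ddn), neurogranin and Pyk2 had the largest fitted differences, all with cerebellar values mostly under 4. The values of Ddn, a protein of dendrites and spines, were 11.57, 12.31 and 12.62 (lowest, median and highest of 6 arrays) in wild-type striatum and 12.18, 12.45 and 12.81 in Q111 striatum, against 1.37, 2.16 and 2.37 in wild-type cerebellum and 1.67, 2.29 and 2.84 in Q111 cerebellum. The tissues were far apart and the genotypes overlapped in each. The wild-type difference was 10.19 (SE 0.21, adjusted p = 2.98e-22), but all its cerebellar values lay under 4. With every value under 4 set to 4, Ddn was at least 293-fold higher in striatum, a log2 difference of 8.19.

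Pyk2 (Ptk2b), a calcium-responsive tyrosine kinase, ran from 10.54 to 10.88 (median 10.75) in wild-type striatum and from 10.56 to 10.72 (median 10.65) in Q111 striatum. In cerebellum it ran from 1.46 to 2.03 (median 1.90) in wild type and from 1.75 to 2.04 (median 1.82) in Q111. The genotypes overlapped in each tissue, and the tissue difference was at least 106-fold in wild type on the same bound. Neurogranin (Nrgn), which holds calmodulin at the synapse, ran from 11.88 to 13.25 (median 12.54) in wild-type striatum and from 12.08 to 12.76 (median 12.50) in Q111 striatum. Its cerebellar values ran from 2.62 to 4.55 (median 3.78) in wild type and from 1.79 to 4.35 (median 3.96) in Q111. Its spread was the widest of these 3 in cerebellum, and the bound on the wild-type difference was 326-fold, above that of Ddn.

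Synaptopodin (Synpo), the actin-associated protein of the spine apparatus, ran from 8.82 to 9.78 (median 9.43) in wild-type striatum and from 9.27 to 9.79 (median 9.56) in Q111 striatum. Its wild-type tissue difference was 5.94 (SE 0.16, adjusted p = 6.34e-20), with a bound of 5.40. The scaffold genes Ppp1r9a, which encodes neurabin, and Baiap2, which encodes the actin adaptor IRSp53, were also higher in wild-type striatum, by 2.77 and 2.49. All 3 measured genes that link actin or protein phosphatase 1 to the density were called higher in striatum, against 32.1% of all genes. Synpo passed the filter through striatum alone, so its call is partly set by the filter.

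Homer1 and Homer3 went opposite ways. Homer1 ran from 10.57 to 11.24 (median 11) in wild-type striatum and from 10.54 to 10.92 (median 10.77) in Q111 striatum. In cerebellum it ran from 7.33 to 7.67 (median 7.48) in wild type and from 7.37 to 7.92 (median 7.74) in Q111. The wild-type difference was 3.43, and the other 4 Homer1 probe sets gave 3.38, 3.61, 3.79 and 4.07. Homer3 ran from 2.09 to 2.46 (median 2.31) in wild-type striatum and from 2.04 to 2.35 (median 2.31) in Q111 striatum, and it was at or above 8.45 on all 12 cerebellar arrays, with medians of 9.04 in wild type and 8.85 in Q111. Its wild-type difference was -6.74 (SE 0.11, adjusted p = 9.31e-25), with a bound of -5.04, or 32.8-fold. Homer3 overlaps Ddx49 in the RefSeq gene table. Homer2 had a smaller difference, 0.93 in wild type, and Shank3, which binds Homer and SAPAP, had 0.50.

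Among the CaMKII subunits, alpha (Camk2a) and beta (Camk2b) were called higher in striatum and delta (Camk2d) and gamma (Camk2g) higher in cerebellum. Camk2a ran from 9.90 to 10.19 (median 10.07) in wild-type striatum and from 10.08 to 10.85 (median 10.45) in Q111 striatum, against 5.17 to 5.75 (median 5.61) and 4.94 to 5.93 (median 5.63) in cerebellum. Its wild-type difference was 4.52, or 23.0-fold, and 4.32, 4.52 and 4.73 by its other 3 probe sets. With values under 4 set to 4, these 3 were at least 7.53-fold, 22.9-fold and 22.5-fold higher in striatum. Camk2d ran from 7.32 to 8.30 (median 7.76) in wild-type striatum and from 7.67 to 8.24 (median 8.06) in Q111 striatum, against 10.27 to 10.86 (median 10.64) and 10.47 to 10.95 (median 10.71) in cerebellum. Its wild-type difference was -2.82, or 7.06-fold, and its other 4 probe sets were all lower in striatum. Of those 4, 1427763_a_at gave -3.68, and the other 3 had striatal means under 4 and were at least 4.60-fold to 9.92-fold lower there on the bound. The tissue differences of Camk2b (0.78) and Camk2g (-0.60) were smaller.

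Lin7a and Lin7b, small PDZ adaptors of the Cask complex, also divided. Lin7b ran from 9.53 to 9.88 (median 9.72) in wild-type striatum and from 5.82 to 6.54 (median 6.25) in wild-type cerebellum, a difference of 3.51 or 11.4-fold. In Q111 it ran from 9.21 to 9.74 (median 9.32) in striatum and from 5.73 to 6.30 (median 5.95) in cerebellum. Lin7a ran from 8.96 to 9.17 (median 9.08) in wild-type striatum and from 11.59 to 11.84 (median 11.73) in wild-type cerebellum, a difference of -2.65 or 6.26-fold the other way. Its Q111 values ran from 9.20 to 9.33 (median 9.32) in striatum and from 11.77 to 11.97 (median 11.82) in cerebellum. Each value is set against the same probe set in the other tissue only, since levels of different probe sets cannot be ranked.

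The TARPs divided likewise. Cacng3 and Cacng4 were called higher in wild-type striatum, and Cacng2 (stargazin), Cacng5 and Cacng7 higher in wild-type cerebellum. Cacng3 had medians of 8.25 and 8.28 in wild-type and Q111 striatum (ranges 7.80 to 8.39 and 7.83 to 8.45) and of 2.38 and 2.70 in cerebellum (2.06 to 2.68 and 2.09 to 3.13), a wild-type difference of 5.80 with a bound of 4.17. Cacng2 had medians of 8.14 and 8.40 in striatum (7.75 to 8.63 and 8.23 to 8.72) and of 9.05 and 9.25 in cerebellum (8.87 to 9.35 and 9.08 to 9.63), a difference of -0.97. Stargazin is known for carrying AMPA receptors to granule cell synapses. Cacng5 had medians of 4.82 and 5.28 in striatum (4.66 to 6.19 and 4.35 to 5.62) and of 6.06 and 6.17 in cerebellum (5.79 to 6.84 and 5.79 to 7.03), and its difference of -1.13 stood on wild-type groups that overlapped. Cacng7 had medians of 2.81 and 3.24 in striatum (2.43 to 3.06 and 2.97 to 3.53) and of 4.42 and 3.94 in cerebellum (3.45 to 4.73 and 3.41 to 4.65), and its difference of -1.42 shrank to -0.37 when values under 4 were set to 4.

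Of the SAPAPs, Dlgap2, Dlgap3 and Dlgap4 were called higher in striatum and Dlgap1 higher in cerebellum. Dlgap2 had medians of 6.47 and 6.91 in wild-type and Q111 striatum (ranges 5.79 to 6.73 and 5.87 to 7.10) and of 2.11 in both cerebellar groups (1.89 to 2.25 and 2.06 to 2.24), a wild-type difference of 4.29 with a bound of 2.39. Dlgap1 had medians of 9.84 and 10.22 in striatum (9.66 to 10.05 and 9.85 to 10.34) and of 11.11 and 11.03 in cerebellum (10.92 to 11.34 and 10.95 to 11.10), a wild-type difference of -1.27. Camk2g, the last of the 8 called higher in wild-type cerebellum, had medians of 10.03 and 10.07 in striatum (9.69 to 10.32 and 9.61 to 10.45) and of 10.62 and 10.33 in cerebellum (10.48 to 10.79 and 10.17 to 10.51).

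The other genes had called wild-type differences between 0.44 (Dlg2) and 3.43 (Homer1), all higher in striatum. Dlg1, Dlg2 and Dlg3, the SAP97, PSD-93 and SAP102 scaffolds, were higher by 0.48, 0.44 and 0.91. The neuroligins, postsynaptic partners of the neurexins, had 2 of 3 called, Nlgn1 by 2.2 and Nlgn3 by 0.76. Nlgn2, the neuroligin of inhibitory synapses, had 0.10 (adjusted p = 0.181) and was not called in either genotype. Dlg4, which encodes PSD-95, was the other gene not called in wild type (0.21, SE 0.42, adjusted p = 0.657), with a second probe set at 0.84 (SE 0.23, adjusted p = 0.00240). In wild type all 36 further probe sets of 17 genes had the sign of their gene's chosen probe set, and in Q111 35 of the 36 did, with a Dlgap1 probe set (1438098_at) the exception.

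By genotype the differences were smaller, with a median size of 0.14 over the 33 in striatum. In striatum 2 of the 33 genes passed the threshold, Dlgap1 and Lin7a, both higher in Q111. The background was 2.78% of all genes in either direction and 0.873% higher. The median difference, Q111 minus wild type, was 0.02 over the 33 and -0.03 over all genes. At an unadjusted p under 0.05 stood 10 of the 33, against 19.2% of all genes. The groups did not overlap for 1 of the 33, Lin7a, against 2.43% of all genes. The 95% interval stayed within a 1.5-fold change for 26 of the 33.

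**Figure D2:**
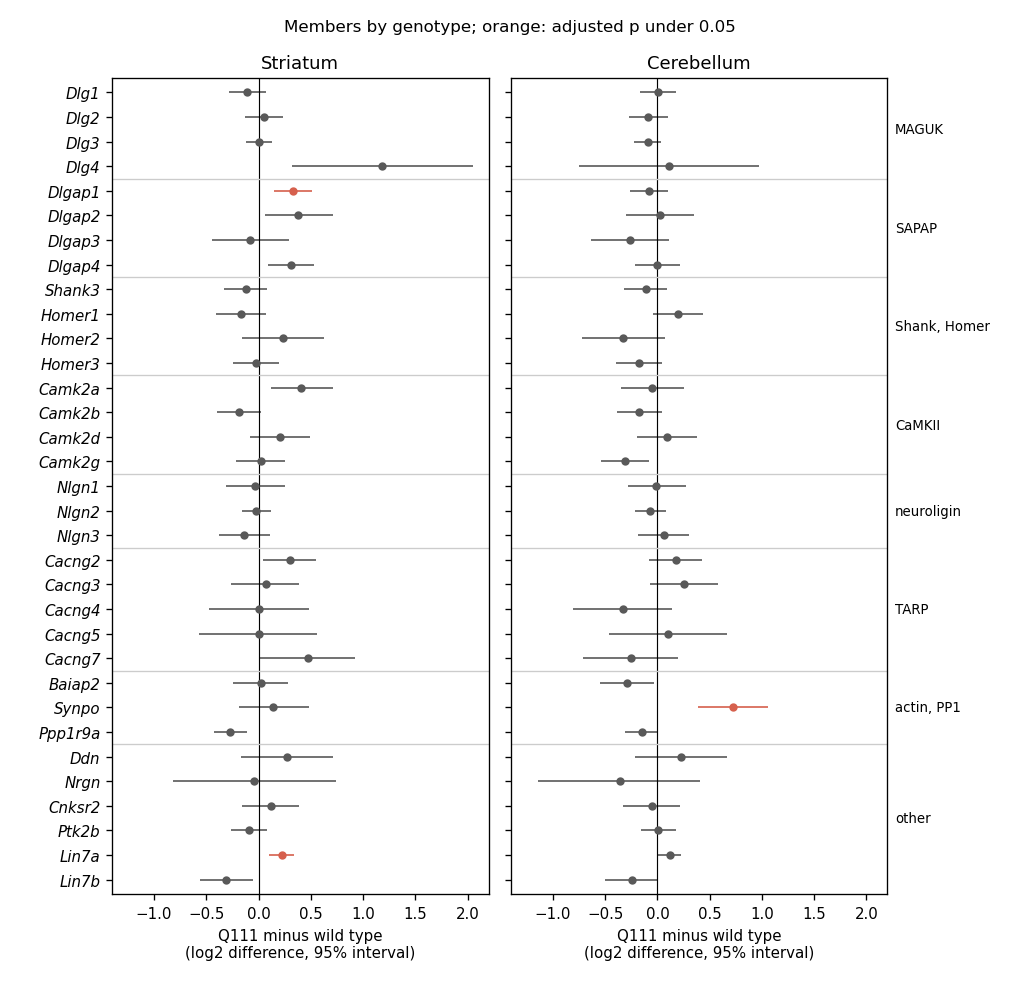
Log2 difference of Q111 minus wild type (x axis) with 95% intervals for each of the 33 genes (rows, grouped by role) in striatum (left) and cerebellum (right); orange marks an adjusted p under 0.05. Only Dlgap1 (0.33) and Lin7a (0.22) in striatum and Synpo (0.72) in cerebellum are orange, and the interval of Dlg4 in striatum (0.32 to 2.05) is the widest on that side.

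Dlgap1, which encodes the SAPAP1 linker between PSD-95 and Shank, had values of 9.66, 9.84 and 10.05 (lowest, median and highest) in wild-type striatum and 9.85, 10.22 and 10.34 in Q111 striatum. All 6 Q111 arrays lay above the wild-type mean, and the groups overlapped through Q111 array 4. The difference was 0.33 (SE 0.09, adjusted p = 0.0445). It was 0.44 in replicate numbers 1 to 3 and 0.22 in numbers 4 to 6. Of its other 4 probe sets, 3 gave 0.35, 0.34 and 0.43 and the fourth (1438098_at) gave -0.01, with adjusted p between 0.105 and 0.966. In cerebellum the difference was -0.08, and the difference between the tissues' differences was 0.41 (SE 0.13, adjusted p = 0.187). The replicate block (adjusted p = 0.0778), the number set in the model, either set alone, the compared groups alone, no filter and the mean of probe sets each ended the call, with adjusted p from 0.0161 to 0.601 over all settings and arrays left out. With the cortex marker mean as a covariate the striatal difference was 0.09 (adjusted p = 0.601). That marker mean itself differed between the genotypes, with striatal medians of 7.97 in Q111 and 7.46 in wild type. The fit therefore cannot tell genotype and tissue makeup apart, and the part of tissue makeup was not tested. The call was also lost without wild-type striatum array 1, 3 or 4, Q111 striatum array 1, 2, 3, 5 or 6, wild-type cerebellum array 1 or 5, or Q111 cerebellum array 2 or 3, with values from 0.29 to 0.39 over the 24 fits that leave out 1 array.

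Lin7a had values of 8.96, 9.08 and 9.17 in wild-type striatum and 9.20, 9.32 and 9.33 in Q111 striatum, groups that did not overlap. The difference was 0.22 (SE 0.06, adjusted p = 0.0381), with 0.29 in numbers 1 to 3 and 0.15 in numbers 4 to 6. With the cortex covariate it was 0.20 and no longer passed (adjusted p = 0.208). The call was also lost with the replicate block (adjusted p = 0.0637), with the number set in the model, within either set and in the fit to the compared groups only, with adjusted p from 0.0158 to 0.833 over all settings. Its other 2 probe sets, at lower levels, gave -0.23 (SE 0.19, adjusted p = 0.556) and -0.17 (SE 0.18, adjusted p = 0.671). The mean over the gene's probe sets gave -0.06, so the direction of Lin7a rests on the choice of probe set. Leaving out wild-type striatum array 2, 3, 4, 5 or 6 or Q111 striatum array 1, 2, 3, 5 or 6 ended the call too, with values from 0.20 to 0.24 over the 24 such fits.

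Counting every kept probe set, 4 of 69 passed in striatum, against 2.87% of all probe sets. The further ones were 1 for Lin7b and 1 for Cacng2. Lin7b probe set 1439239_at had values of 5.91, 6.10 and 6.25 in wild-type striatum and 5.12, 5.36 and 5.49 in Q111 striatum. Every Q111 array lay below every wild-type array by a clear gap. The difference was -0.75 (SE 0.10, adjusted p = 1.12e-04), and it was -0.76 in numbers 1 to 3 and -0.74 in numbers 4 to 6. It passed under the 13 other settings run for this probe set and with any of the 24 arrays left out, with adjusted p between 9.17e-07 and 0.0407.

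In cerebellum the same probe set had values of 3.75, 3.82 and 4.14 in wild type and 3.63, 3.94 and 4.17 in Q111, a difference of 0.05. Both cerebellar means lay under 4, the filter level, and little above the array medians of 3.38 to 3.51. This limits what a difference there can show. The difference between the tissues' differences was -0.80 (SE 0.14, adjusted p = 0.0160). It lost the threshold with the replicate block (adjusted p = 0.0605), within either number set and with the cortex covariate, with adjusted p from 5.17e-04 to 0.182 over all settings. The other 3 Lin7b probe sets, with striatal means from 7.43 to 9.71, gave -0.31, -0.22 and -0.29 in striatum, with adjusted p between 0.168 and 0.587. All 4 thus had the same sign, with 1 of them called. Lin7b overlaps the gene Mtag2 in the RefSeq table, and which transcripts each probe set detects was not tested.

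**Figure D3:**
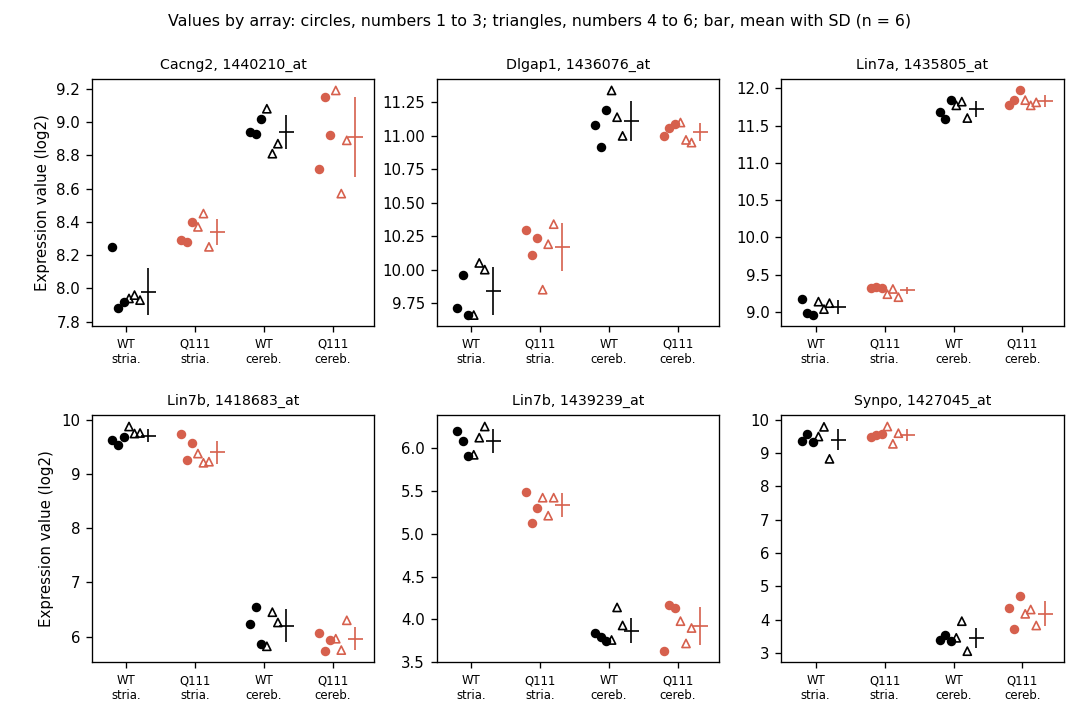
Expression value (y axis, log2, a separate scale per panel) on each array in the 4 groups; circles are replicate numbers 1 to 3, triangles numbers 4 to 6, and the bar beside them is the mean with its SD (n = 6). Lin7b 1439239_at shows the gap between wild-type (5.91 to 6.25) and Q111 striatum (5.12 to 5.49), and Lin7a differs by 0.22 between the genotypes in striatum.

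Cacng2 probe set 1440210_at ran from 7.88 to 8.25 (median 7.93) in wild-type striatum and from 8.25 to 8.45 (median 8.33) in Q111 striatum. Only wild-type array 1 reached the Q111 range. The difference was 0.36 (SE 0.09, adjusted p = 0.0308). The gene's chosen probe set gave 0.30 (SE 0.12, adjusted p = 0.184) and another gave 0.00. The call of 1440210_at was lost with the number set in the model, within either set and with the cortex covariate (adjusted p = 0.119), and without wild-type striatum array 2, 3, 4, 5 or 6 or Q111 striatum array 1, 3 or 5, with values from 0.34 to 0.41 over the 24 such fits.

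The genes that follow are given as values, since none of them passed by its chosen probe set. Ppp1r9a was nearest, at -0.27 (SE 0.08, adjusted p = 0.0602), with all 6 Q111 arrays below the wild-type mean. Dlgap4 had 0.31 (adjusted p = 0.103) and Dlgap2 0.38 (adjusted p = 0.180), so that 3 of the 4 SAPAPs had positive differences, with Dlgap3 at -0.08. Camk2a had 0.41 (SE 0.14, adjusted p = 0.114), the largest difference of the 4 CaMKII subunits, and its other probe sets gave -0.06, 0.65 and 0.75. In the Shank and Homer group Homer2 had 0.23 (adjusted p = 0.557), among the neuroligins Nlgn3 had -0.14 (adjusted p = 0.581), and among the TARPs Cacng7 had 0.47 (adjusted p = 0.248) on values that all lay under 4.

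Homer1 probe sets pointed in different directions in striatum. The chosen probe set gave -0.17 (SE 0.12, adjusted p = 0.445), 3 others gave -0.05, -0.30 and -0.45, and 1436387_at gave 0.84 (SE 0.28, adjusted p = 0.0956). Homer1 is known to give a short activity-induced form as well as long forms, and which form each probe set detects was not tested. Over all members with several probe sets, 27 of 36 further probe sets had the sign of the chosen one in striatum and 20 of 36 in cerebellum.

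**Figure D4:**
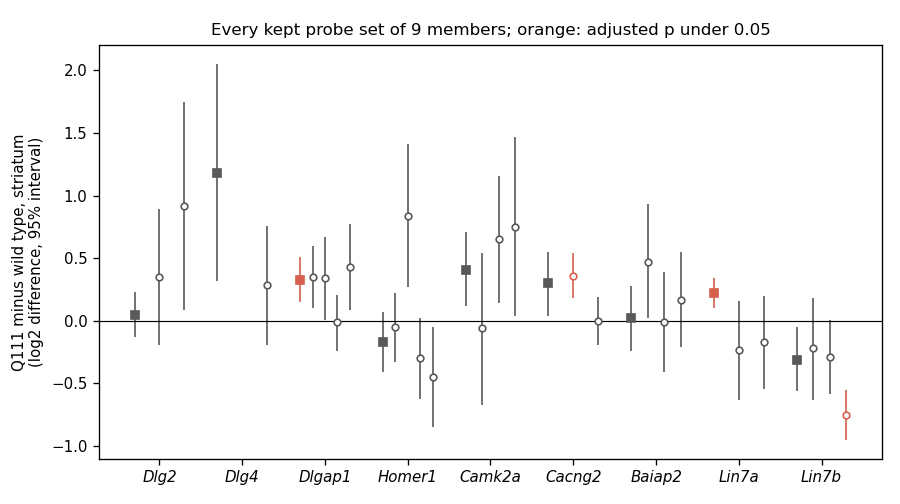
Log2 difference of Q111 minus wild type in striatum (y axis) with 95% intervals for every kept probe set of 9 genes (x axis); filled squares are the chosen probe sets, open circles the others, and orange marks an adjusted p under 0.05. The 4 Lin7b probe sets all lie below 0, and the Lin7a and Homer1 probe sets lie on both sides.

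Dlg4 had the largest striatal difference of the 33, and its arrays fell into groups that the genotype alone does not describe. In wild-type striatum the values of arrays 1 to 6 were 10.23, 8.89, 8.73, 7.02, 7.46 and 6.99. In Q111 striatum they were 9.19, 8.57, 8.94, 10.23, 9.73 and 9.75. Wild-type arrays 4 to 6 lay below all others, and Q111 arrays 4 to 6 lay above all others but wild-type array 1. The difference over all arrays was 1.18 (SE 0.42, adjusted p = 0.119). It was -0.38 in numbers 1 to 3 and 2.74 in numbers 4 to 6, and within numbers 4 to 6 alone the adjusted p was 0.00250. The second Dlg4 probe set, 1419580_at, had striatal means of 8.73 in wild type and 9.02 in Q111. Its difference was -0.43 in numbers 1 to 3 and 1.01 in numbers 4 to 6, where it was not called (limma, adjusted p = 0.0604).

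The difference between the number sets was itself fitted for all probe sets, as the genotype difference in numbers 4 to 6 minus that in numbers 1 to 3. This fit was chosen after the values had been seen. In striatum 2 of the 33 genes passed, Dlg4 and Cacng4, against 2.10% of all genes, and 6 of 69 probe sets, against 2.90%. Dlg4 had 3.12 (SE 0.47, adjusted p = 0.00119), and its second probe set had 1.44 (SE 0.36, adjusted p = 0.0371). Cacng4, a TARP, had 1.66 (SE 0.33, adjusted p = 0.0105), made of -0.83 and 0.83, so that its difference over all arrays was 0.00. Its second probe set, 1455230_at, was not called, with 0.63 (SE 0.27, adjusted p = 0.205), made of -0.58 and 0.05.

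Cacng4 values in wild-type striatum were 9.31, 9.37 and 9.70 in numbers 1 to 3 and 8.74, 8.74 and 8.30 in numbers 4 to 6, and in Q111 striatum 8.90, 8.40 and 8.59, then 9.70, 9.27 and 9.31. Baiap2 passed by 2 probe sets that were not its chosen one. They were 1451027_at with 1.53 (SE 0.24, adjusted p = 0.00210) and 1425656_a_at with 1.41 (SE 0.34, adjusted p = 0.0316). Ptk2b passed by 1442927_at with 0.81 (SE 0.19, adjusted p = 0.0245) on striatal values of 3.70 to 4.80, near the filter level. The chosen probe sets of Baiap2 and Ptk2b were not called. In cerebellum 0 of the 33 passed by this limma fit, against 0.00929% of all genes, with 3 at an unadjusted p under 0.05, against 6.83%.

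In Baiap2 1451027_at the wild-type arrays 1 to 3 (9.03 to 9.14) and Q111 arrays 4 to 6 (8.85 to 9.21) were high, and wild-type arrays 4 to 6 (8.25 to 8.28) and Q111 arrays 1 to 3 (8.26 to 8.32) were low. The mean of the 6 arrays of each number set was thus nearly equal, with numbers 4 to 6 minus numbers 1 to 3 at -0.04, and for Cacng4 at -0.03. For Dlg4 it was not, at -0.56, nor for the other called Baiap2 probe set, 1425656_a_at, at -0.2. Over all 20738 probe sets the SD of this set-mean difference in striatum was 0.0534, against an SD of 0.211 for the difference between the genotype means. Where the set means are equal, a rise in 1 genotype goes with a fall in the other by arithmetic. For Baiap2 1451027_at and Cacng4 the shifts of the genotypes between number sets are therefore not separate observations. What the numbers stand for is not given in the labels.

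Markers moved between the number sets as well. The mean of the striatal projection neuron markers was 12.43 in wild-type striatum and 11.96 in Q111 striatum in numbers 1 to 3, and 12.07 and 12.25 in numbers 4 to 6. The cortex markers were at 7.26 and 8.04 in numbers 1 to 3 and at 7.57 and 7.73 in numbers 4 to 6, and the thalamus markers at 6.05 and 7.13, then 7.06 and 6.30. Their part in the values of Dlg4, Cacng4 and Baiap2 was not tested. Over the 33 genes, 16 had the same sign of the striatal genotype difference in both number sets, and over all genes 50.5% did.

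**Figure D5:**
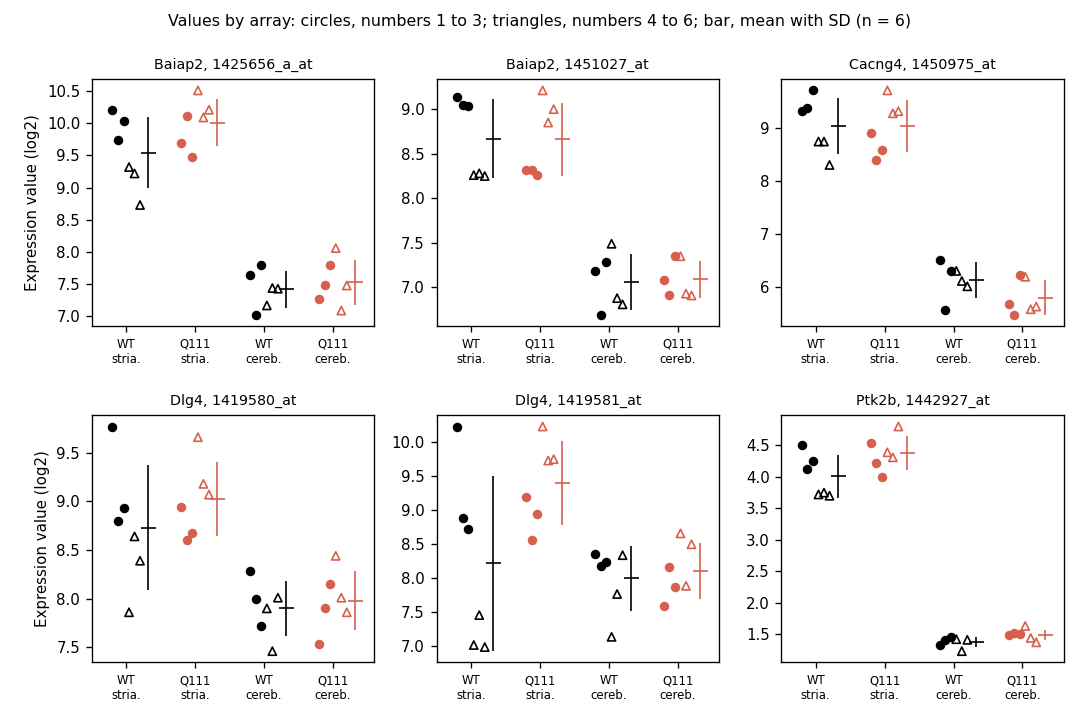
Expression value (y axis, log2, a separate scale per panel) on each array in the 4 groups for the 6 probe sets whose striatal genotype difference differed between number sets; circles are numbers 1 to 3, triangles numbers 4 to 6, and the bar is the mean with its SD (n = 6). In Dlg4 1419581_at wild-type circles (8.73 to 10.23) lie above wild-type triangles (6.99 to 7.46), and in Q111 striatum the triangles lie above the circles.

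In cerebellum 1 of the 33 genes passed by genotype, Synpo, against 0.446% of all genes in either direction and 0.0929% higher. Its values were 3.05, 3.42 and 3.95 in wild-type cerebellum and 3.72, 4.23 and 4.71 in Q111 cerebellum, low values whose groups overlapped. The difference was 0.72 (SE 0.16, adjusted p = 0.0457), with 0.84 in numbers 1 to 3 and 0.61 in numbers 4 to 6. With values under 4 set to 4 the difference was 0.26, and the call was lost. It was also lost without a filter, with quantile normalisation, with the number set in the model, within either set, in the fit to the compared groups only, and without wild-type cerebellum array 1, 3, 4 or 6, Q111 cerebellum array 1, 3, 4 or 5, wild-type striatum array 1, 3 or 4, or Q111 striatum array 1, 2, 3 or 6, with values from 0.62 to 0.82 over the 24 such fits. In striatum, where Synpo is far higher, the genotype difference was 0.14 (SE 0.16, adjusted p = 0.688), and the difference between the tissues' differences was -0.58 (SE 0.23, adjusted p = 0.379).

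The other cerebellar differences lay between -0.36 (Nrgn) and 0.25 (Cacng3), and the median over the 33 was -0.05, as over all genes. Of the other genes, 2 had an unadjusted p under 0.05, making 3 of the 33 with Synpo, against 14.4% of all genes. They were Camk2g at -0.31 (SE 0.11, adjusted p = 0.213) and Baiap2 at -0.29 (SE 0.13, adjusted p = 0.302). The groups did not overlap for 0 of the 33, against 1.21% of all genes. Dlg4 had 0.11 (adjusted p = 0.943) among the MAGUKs, Dlgap3 -0.26 (adjusted p = 0.538) among the SAPAPs, Homer2 -0.33 (adjusted p = 0.460) in its group, Nlgn2 -0.07 (adjusted p = 0.715) among the neuroligins and Cacng4 -0.33 (adjusted p = 0.540) among the TARPs. The interval stayed within a 1.5-fold change for 24 of the 33.

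For the difference between the tissues' genotype differences, 0 of the 33 passed by limma, against 0.0836% of all genes, and 5 had an unadjusted p under 0.05, against 10.2%. Those 5 were Dlgap1, Homer1 (-0.37), Camk2a (0.46), Cacng7 (0.72) and Synpo. The interval stayed within a 1.5-fold change for 16 of the 33 and reached past it for the other 17. Counting probe sets, 1 of 69 passed, Lin7b 1439239_at, against 0.0868%.

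Other genes of the postsynapse were counted from 6 lists. In striatum 1 of 85 measured genes on these lists passed by genotype, against 2.78% of all genes, with 20 at an unadjusted p under 0.05, against 19.2%. It was Arhgef7, which encodes the Rac and Cdc42 exchange factor beta-Pix, at 0.37 (SE 0.07, adjusted p = 0.00385), and it stood alone among 17 measured spine actin regulators. The other 5 lists had no gene called by limma. Among 23 other scaffold and signalling genes the largest striatal difference was that of Arc, an activity-induced gene of glutamatergic neurons, at -0.60 (adjusted p = 0.203). It was 0.22 for Olfm3 among 12 AMPA receptor auxiliary genes (adjusted p = 0.142), 0.55 for Lrrtm4 among 19 adhesion genes (adjusted p = 0.0970), 0.23 for Camkk2 among 10 calmodulin and CaMKII regulators (adjusted p = 0.123) and 0.09 for Gabrb1 among 4 genes of the inhibitory postsynapse (adjusted p = 0.764). In cerebellum 0 of the 85 passed by limma, against 0.446% of all genes, with 14 at an unadjusted p under 0.05, against 14.4%. The shares at an unadjusted p were near those of all genes in both tissues.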

How the data were processed

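The authors deposited 1 table of GCRMA values for 24 Affymetrix MG430 2.0 arrays, per the submitters' processing notes. GCRMA corrects background by probe sequence, makes arrays alike in distribution and summarises each probe set from its probes; its version, and whether all arrays were normalised together, are not given in the sources used here. The log base of the deposited values is not stated, and their range of -0.77 to 16.33 was read as log2. RNA was extracted with Trizol and a Qiagen column and labelled with biotin, per the labels' protocols. The files name no genome build; promoter sequences and overlapping genes come from RefSeq (GRCm38.p6).

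Of 45101 probe sets, 64 controls were dropped, and 20738 of the other 45037 (46%) had a mean of at least 4 in a tissue. Symbols come from the platform annotation of GEO, which gives 1 symbol for 34945 of them, several for 932 and none for 9160. By Entrez number, 34741 of the 34945 could be found in the RefSeq gene table, and 0 symbols differed. All 24 arrays entered 1 model with a mean per group (limma 3.58.1, R 4.3.3, 20 residual degrees of freedom, prior 3.22), with no covariate. Two-sided p-values were adjusted over all 20738 by Benjamini-Hochberg, and a gene was called at an adjusted p under 0.05. The number of arrays limits the precision; 95% intervals come from the moderated fit. On simulated data with 50 probe sets changed at each size, the striatal comparison called 28% at 1.25-fold, 70% at 1.5-fold and 96% at 2-fold, and the cerebellar one 24%, 76% and 98%. For the difference between the tissues' genotype differences the shares were lower, 14%, 38% and 86%. Of the simulated calls, 7.55% were false in striatum, 7.45% in cerebellum and 6.4% for the difference between tissues. The simulated arrays varied independently, without the near-equal means of the number sets seen in the real data.

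The members and lists were chosen with earlier results of these data known. Full statistics go to each probe set of a member past the threshold by genotype; in role groups without one, the gene with the largest difference is given as a value; between tissues the 8 largest wild-type differences each way are given; each further list gives its called genes or its largest striatal difference. Other filters, scalings, models, number sets and single arrays left out were tried. The bound at 4, the cortex covariate and the fit of genotype by number set were added after the data were seen.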

Additional observations from a re-analysis of the deposited data

Results flagged for a closer look

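Single arrays stood apart from the others of their group for 10 of 132 combinations of gene and group, where chance alone marks about 1 in 20. Each value here is the log2 expression on an array whose gap to its nearest neighbour exceeded the Dixon limit for 6 values. In wild-type striatum these were the lowest values of Shank3 (10.4), Nlgn2 (10.56) and Baiap2 (10.72) and the highest of Nlgn3 (7.53) and Cacng5 (6.19), and array 6 gave 4 of the 5, all but that of Nlgn3. In Q111 striatum they were the lowest values of Dlgap2 (5.87) and Homer3 (2.04) and the highest of Baiap2 (11.7). In Q111 cerebellum they were the highest values of Ptk2b (2.04) and Lin7a (11.97). The values of Homer3 in striatum and of Ptk2b in cerebellum lie under 4, near the bottom of the range.

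The genotype difference of Lin7b probe set 1439239_at differed between striatum and cerebellum by -0.80 in the fit of the difference itself. That call was lost with the replicate block, within either number set and with the cortex covariate (adjusted p up to 0.182), and both cerebellar means lay under 4. The genotype difference in striatum differed between replicate numbers 4 to 6 and 1 to 3 for 6 probe sets, by 3.12 and 1.44 for Dlg4, 1.66 for Cacng4, 1.41 and 1.53 for Baiap2 and 0.81 for Ptk2b (limma, adjusted p under 0.05 for each). All 6 were positive.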

How the results depend on the processing

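The tissue differences kept their direction under the alternatives tried: of 591 values of the named genes, 590 stayed on their side of the threshold and 1 was lost (Cacng5 within numbers 4 to 6, -0.68). The counts stayed between 28 and 32 in wild type (31 in each fit that leaves out 1 array) and between 30 and 33 in Q111 (31 to 33). The genotype calls did not hold so well: of 223 values, 148 stayed, 74 lost the threshold and 1 turned, Lin7a at -0.06 with the mean of probe sets. The striatal count of 2 was 0 with the cortex covariate or the number set in the model. It was also 0 within numbers 1 to 3 and in the fit to the compared groups only. The count was 1 without a filter, with the mean of probe sets and within numbers 4 to 6. Without a filter that gene was Lin7a, and within numbers 4 to 6 it was Dlg4. With the mean of probe sets neither Dlgap1 nor Lin7a passed. The count was 3 with array weights, median centring or a variance trend, and 0 to 2 with 1 array left out. The cerebellar count of 1 was 0 without a filter, with quantile normalisation, with the number set, within either set, in the fit to the compared groups and with values under 4 set to 4, and 0 to 1 with 1 array left out. Lin7b 1439239_at passed in striatum under each setting run for it, from -0.81 to -0.70; its difference between tissues ran from -0.94 to -0.66 and lost its call under 4 of 12 settings. The interaction count stayed at 0. Why calls were lost was not tested.

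Replicate numbers did not meet the rule for pairing, every correlation over 0.1: deviations of arrays with 1 number correlated from -0.409 to -0.0881 between the genotypes in striatum and from -0.423 to 0.119 in cerebellum, and 0 of 6 arrays matched best with their own number in each. Between the tissues they ran from -0.0043 to 0.183 in wild type, with 3 of 6 pairs over 0.1 and 3 of 6 arrays best with their own number, and from -0.0547 to 0.142 in Q111, with 2 of 6 and 2 of 6. Within a tissue the near-equal means of the number sets push the correlations between genotypes down beforehand. This check could therefore not decide whether the genotypes were paired. Whether tissues share animals stays unknown. With the replicate block the counts were 0 in striatum, 1 in cerebellum, 0 for the interaction, 31 between wild-type tissues and 33 between Q111 tissues.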
